A study of Mus musculus with 6 samples.

Results

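The genes described here build the pre-T-cell receptor and the antigen receptor genes it reports on: Ptcra, the CD3 chains Cd3e, Cd3d, Cd3g and Cd247, and the V(D)J recombination genes Rag1, Rag2 and Dntt. These 8 genes were chosen by name. Of them, 7 were read among the 22414 genes with values, each on the probe set that carries its mouse Ensembl gene ID, and Rag1 was not analysed here. All 7 lay above the floor on low levels, a log2 level of 5.54, on each of the 6 arrays, as 12150 genes did on at least 1 array.

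In developing thymocytes, RAG1 and RAG2 cut the T-cell receptor genes, terminal transferase (Dntt) adds untemplated bases at the joints, and a productive β chain pairs with the invariant pre-TCR α chain (Ptcra). That pair reaches the cell surface only with the CD3 chains, whose cytoplasmic tails carry the signal. Notch1 signalling accompanies this stage, and Ptcra is known as a gene with Notch-responsive elements in an enhancer upstream of its promoter.

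Total RNA of Beko cells, a mouse T-lineage leukaemia line, was hybridised to 6 Affymetrix arrays, 1 for each condition. Parental cells were given DAPT, which inhibits γ-secretase, at 10 μM, or DMSO, and were collected at 24 h. Cells infected and selected for a DNMAML-ER fusion, a dominant-negative Mastermind tied to an oestrogen receptor part, were given hydroxytamoxifen (OHT) at 0.75 μg/mL or ethanol for 48 h. Cells selected for a Notch1-ER fusion were given OHT at the same dose, or ethanol, for 48 h. DAPT stops release of active Notch, DNMAML blocks the Notch transcription complex, and OHT switches on either fusion. The labels name the cells only as Beko. The marker genes of T, B, myeloid, erythroid and NK cells could not be matched to the array's IDs, so the cell type was seen only through the 7 genes themselves. A cell line with OHT but no fusion was not analysed here. The parental and fusion-carrying cells also differ in vehicle and time, so those differences cannot be told apart from the effect of a fusion. With 1 array per condition a difference within a pair has no replicate check, and in bulk RNA fewer cells of a type and less RNA per cell cannot be told apart.

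Levels are log2 values after RMA, a difference is treated minus vehicle, and a difference of 1 is a 2-fold change. Array medians lay between 5.43 and 5.61, and the median difference of all 12150 genes was 0.02 in the DAPT pair, 0.01 in the DNMAML-ER pair and -0.01 in the Notch1-ER pair.

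Ptcra (ENSMUSG00000036858_at) followed the design in all 3 pairs. Its level was 9.46 with DAPT and 11.21 with DMSO, a difference of -1.75 or 3.35-fold. In the DNMAML-ER line it was 10.26 with OHT and 11.00 with ethanol, a difference of -0.74 or 1.67-fold. In the Notch1-ER line it was 11.73 with OHT and 11.07 with ethanol, a difference of 0.66 or 1.58-fold. Ptcra was thus lowest on the 2 arrays of inhibited cells and highest where Notch1-ER was switched on, while the 3 vehicle arrays lay within 0.21 of each other. Each of the 3 treated levels lay outside the vehicle range of 11.00 to 11.21.

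Of the 7 genes only Ptcra passed 2-fold, and only in the DAPT pair. At 2-fold, 198 of all 12150 genes (1.63%) differed in either direction with DAPT, 96 (0.79%) with DNMAML-ER and 64 (0.527%) with Notch1-ER, and the 7 genes gave 1, 0 and 0. In the DAPT pair 18 of the 12150 genes (0.148%) were as low as Ptcra or lower. In the DNMAML-ER pair 92 genes (0.757%) were as low, and in the Notch1-ER pair 129 (1.06%) were as high. Of all 12150 genes, 15 (0.123%) were at least 1.5-fold higher with Notch in all 3 pairs, and Ptcra was 1 of these. At the same size 16 genes (0.132%) were lower with Notch in all 3 pairs, and none of the 7 was among them.

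**Figure D1:**
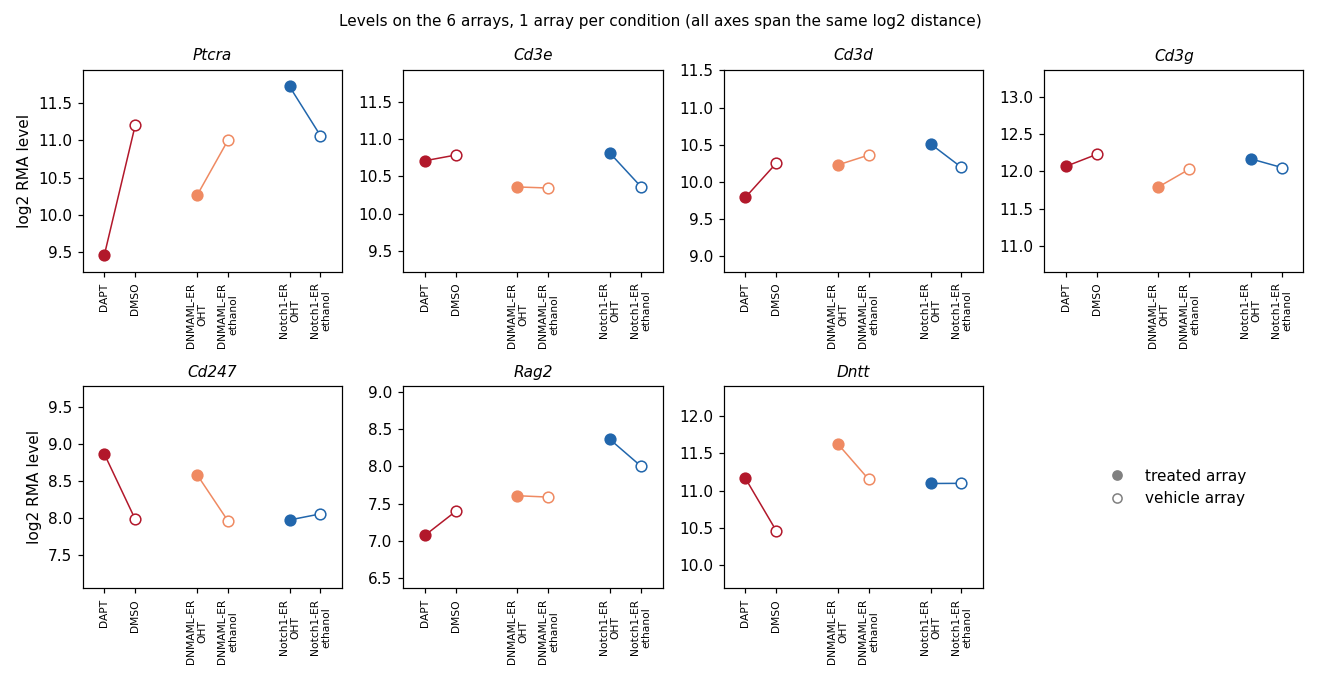
Log2 RMA level of each of the 7 genes on the 6 arrays, with treated arrays filled, vehicle arrays open and a line joining each pair; every vertical axis spans the same distance. Ptcra was 9.46 with DAPT and 11.73 with Notch1-ER and OHT, and the levels of Cd247 run the other way with both inhibitors.

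The 300 bases around the Ptcra start are shown because this gene had the widest differences of the 7. The window runs from 250 bases before the start to 50 after it, in RefSeq's GRCm38.p6, chr17:46763663-46763962 on the minus strand, printed 5′ to 3′ on the gene's strand. Capitals mark the core TGGGAA bound by RBPJ, the DNA-binding partner of Notch, and the E-box CANNTG bound by E proteins, both searched on both strands.
Ptcra: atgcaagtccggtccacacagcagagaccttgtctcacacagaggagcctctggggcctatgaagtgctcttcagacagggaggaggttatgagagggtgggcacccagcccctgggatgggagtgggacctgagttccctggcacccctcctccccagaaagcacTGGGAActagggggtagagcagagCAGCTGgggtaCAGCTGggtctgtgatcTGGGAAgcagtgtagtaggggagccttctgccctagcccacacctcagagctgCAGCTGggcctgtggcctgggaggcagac
The window holds 2 RBPJ cores, at -84 and -32 from the start, and 3 E-boxes, at -60, -49 and 22, each reading CAGCTG, with 0 overlaps between the motifs. Among 32851 RefSeq promoter windows of this length, 25.6% hold at least 1 RBPJ core and 3.79% at least 2. At least 1 E-box is in 72.3% and at least 3 in 17.6%. The motifs were chosen after the expression values were known, and a match is a string of letters and not a measured site.

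The CD3 chains differed among themselves. CD3ε (Cd3e), CD3δ (Cd3d) and CD3γ (Cd3g), which pair as εδ and εγ in the receptor, stayed within 1.5-fold in each pair, and CD3ζ (Cd247), which forms its own dimer, did not. At that size 972 of the 12150 genes (8%) differed with DAPT in either direction, 453 (3.73%) with DNMAML-ER and 278 (2.29%) with Notch1-ER, and of the 7 genes 3 (Ptcra, Cd247, Dntt), 2 (Ptcra, Cd247) and 1 (Ptcra) did.

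Cd3d (ENSMUSG00000032094_at) had a level of 9.79 with DAPT and 10.25 with DMSO, a difference of -0.46. In the DNMAML-ER line its level was 10.23 with OHT and 10.36 with ethanol, a difference of -0.13, within the 0.17 by which the 2 ethanol arrays differed. In the Notch1-ER line it was 10.51 with OHT and 10.20 with ethanol, a difference of 0.32. Cd3d had the same signs as Ptcra in all 3 pairs at smaller sizes, and its DAPT array was the lowest of the 6 and its Notch1-ER OHT array the highest. In the DAPT pair 6% of all genes were as low or lower, and in the Notch1-ER pair 6.85% were as high or higher.

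Cd3g (ENSMUSG00000002033_at) varied least, with levels from 11.79 to 12.23 over the 6 arrays. It was 12.07 with DAPT and 12.23 with DMSO, 11.79 with OHT and 12.03 with ethanol in the DNMAML-ER line, and 12.17 with OHT and 12.05 with ethanol in the Notch1-ER line. The differences of -0.16, -0.24 and 0.12 also had the signs of Ptcra. The 3 vehicle arrays spanned 0.20 for this gene, and on the deposited scale only the DNMAML-ER difference was wider than that. After a second quantile normalization the DAPT difference was -0.29 and the DNMAML-ER difference -0.23. After cyclic loess they were -0.19 and -0.20, so which of them was wider depended on the scaling. Signs that follow Notch in all 3 pairs, higher with Notch at any size, were seen in 1670 of the 12150 genes (13.7%), and Ptcra, Cd3d and Cd3g were 3 of the 7 here.

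Cd3e (ENSMUSG00000032093_at) differed more between the DMSO array and the ethanol arrays than within either inhibitor pair. Its level was 10.71 with DAPT and 10.79 with DMSO, a difference of -0.08. In the DNMAML-ER line it was 10.36 with OHT and 10.34 with ethanol, a difference of 0.01. In the Notch1-ER line it was 10.81 with OHT and 10.36 with ethanol, a difference of 0.45 or 1.37-fold. The Notch1-ER OHT array thus stood at the height of the parental arrays, and the other 3 fusion-line arrays lay together below them. Without treatment, the ethanol arrays lay below DMSO by a difference of -0.44 for DNMAML-ER and -0.43 for Notch1-ER. Cell line, vehicle and time cannot be told apart in that gap. In the Notch1-ER pair 2.99% of all genes were as high as Cd3e or higher.

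In the reference annotation Cd3e, Cd3d and Cd3g are neighbours, with 0 annotated genes between Cd3e and Cd3d and 0 between Cd3d and Cd3g. The promoter windows of Cd3g, on the minus strand, and Cd3d, on the plus strand, are 854 bases apart in GRCm38.p6. The sign of the difference of Cd3e departed from that of Cd3d and Cd3g in the DNMAML-ER pair, at a size of 0.01.

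Cd247 (ENSMUSG00000005763_at) went the other way from Ptcra. Its level was 8.86 with DAPT and 7.98 with DMSO, a difference of 0.88 or 1.84-fold. In the DNMAML-ER line it was 8.59 with OHT and 7.97 with ethanol, a difference of 0.62 or 1.54-fold. In the Notch1-ER line it was 7.98 with OHT and 8.06 with ethanol, a difference of -0.08. The 2 inhibited arrays stood clear of the other 4, which lay between 7.97 and 8.06. In the DAPT pair 1.60% of all genes were as high or higher, and in the DNMAML-ER pair 2.02%. The DNMAML-ER difference was 0.56 after a second quantile normalization and 0.57 after cyclic loess, both just under 1.5-fold (0.58), so that call depended on the scaling. At 1.5-fold, 164 of the 12150 genes (1.35%) were higher in both inhibitor pairs and 60 (0.494%) were lower in both, and Cd247 was in the first group and Ptcra in the second. The switched-on Notch1-ER array did not fall below the vehicle arrays by more than they differed among themselves, 0.09.

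**Figure D2:**
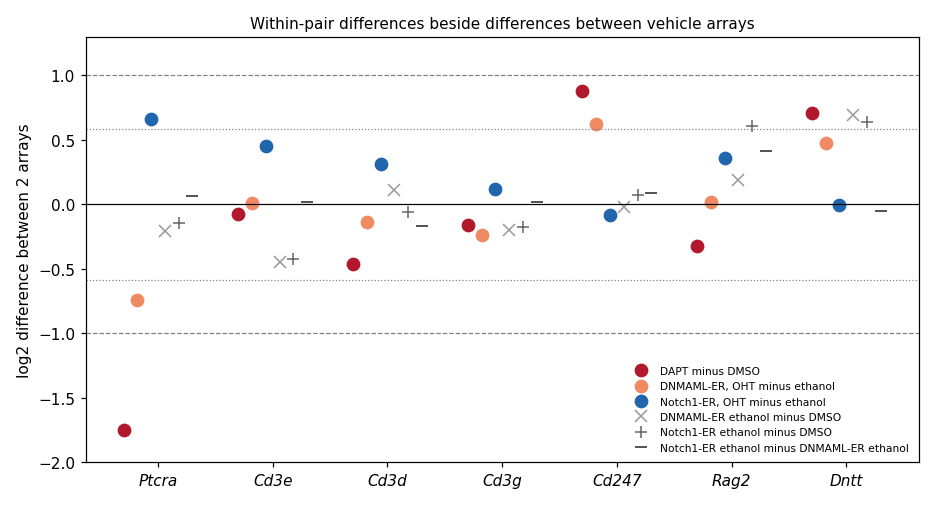
Log2 difference between 2 arrays for each gene, with filled points for treated minus vehicle and crosses, plus signs and dashes for 1 vehicle array minus another; dashed lines mark 2-fold and dotted lines 1.5-fold. Ptcra at -1.75 is the only point past 2-fold, and for Dntt the vehicle arrays differ by up to 0.69.

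Dntt (ENSMUSG00000025014_at), which makes the terminal transferase, was also higher with both inhibitors. It had a level of 11.16 with DAPT and 10.46 with DMSO, a difference of 0.71 or 1.63-fold. In the DNMAML-ER line it was 11.63 with OHT and 11.15 with ethanol, a difference of 0.48 or 1.39-fold. In the Notch1-ER line it was 11.09 with OHT and 11.10 with ethanol, a difference of -0.002. The vehicle arrays of the fusion lines were themselves above DMSO, by 0.69 for DNMAML-ER and 0.64 for Notch1-ER. The DAPT difference was therefore about as wide as the gap between vehicle arrays, and the DAPT array stood level with the fusion lines' ethanol arrays. The DNMAML-ER difference was wider than the 0.05 between the 2 ethanol arrays, and 4.14% of all genes were as high or higher in that pair. DMSO was the lowest of the 6 arrays for Dntt and DNMAML-ER with OHT the highest.

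The promoter windows of Cd247 and Dntt are shown beside that of Ptcra because both genes lay on the other side with both inhibitors. All 3 pairs were lower with Notch at any size in 2188 of the 12150 genes (18%), and of the 7 genes in Cd247 and Dntt, though the Notch1-ER difference of Dntt turned to 0.005 after a second quantile normalization and to 0.055 after cyclic loess. They lie at chr1:165788431-165788730 and chr19:41029025-41029324 of GRCm38.p6, both on the plus strand, and capitals mark the same motifs.
Cd247: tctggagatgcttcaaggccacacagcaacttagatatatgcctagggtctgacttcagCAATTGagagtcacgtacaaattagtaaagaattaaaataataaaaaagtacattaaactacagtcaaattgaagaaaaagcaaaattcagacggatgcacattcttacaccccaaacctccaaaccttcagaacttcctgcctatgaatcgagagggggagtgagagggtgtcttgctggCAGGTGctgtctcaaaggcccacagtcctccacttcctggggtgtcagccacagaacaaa
Dntt: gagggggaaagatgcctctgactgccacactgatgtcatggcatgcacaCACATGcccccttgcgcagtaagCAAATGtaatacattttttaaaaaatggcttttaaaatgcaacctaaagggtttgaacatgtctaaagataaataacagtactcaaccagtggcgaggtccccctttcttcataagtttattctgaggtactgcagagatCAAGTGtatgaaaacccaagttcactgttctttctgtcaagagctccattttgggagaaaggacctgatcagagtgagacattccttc
Neither window holds an RBPJ core, and only 25.6% of the 32851 promoter windows hold at least 1. Cd247 has 2 E-boxes, CAATTG at -191 and CAGGTG at -10, and Dntt has 3, CACATG at -201, CAAATG at -178 and CAAGTG at -38. Among all windows 39.6% hold at least 2 E-boxes and 17.6% at least 3. Of the other genes, Cd3e, Cd3g and Rag1 have 1 RBPJ core each in their windows, and Cd3d and Rag2 have 0. In that order these genes have 2, 4, 4, 1 and 2 E-boxes.

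Rag2 (ENSMUSG00000032864_at), whose protein forms the V(D)J recombinase with RAG1, had a level of 7.07 with DAPT and 7.40 with DMSO, a difference of -0.32. In the DNMAML-ER line it was 7.61 with OHT and 7.59 with ethanol, a difference of 0.02. In the Notch1-ER line it was 8.36 with OHT and 8.004 with ethanol, a difference of 0.36 or 1.28-fold. Rag2 was lowest in the parental cells, intermediate in the DNMAML-ER line and highest in the Notch1-ER line, treated or not. The Notch1-ER ethanol array exceeded the DMSO array by 0.61 or 1.52-fold and the DNMAML-ER ethanol array by 0.42. In the comparison of the 2 ethanol arrays 1.66% of all genes were as high as Rag2 or higher, and Rag2 was the gene of the 7 that differed most there. Its within-pair differences were all smaller than the 0.61 spanned by the vehicle arrays.

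Rag2 and Dntt, both V(D)J genes, had unlike differences, which were not tested against each other. With DAPT, Rag2 was lower (-0.32) and Dntt higher (0.71), and with DNMAML-ER Rag2 differed by 0.02 and Dntt by 0.48. With Notch1-ER, Rag2 differed by 0.36 and Dntt by -0.002.

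Across the 7 genes, 2 were higher and 5 lower with DAPT, 4 higher and 3 lower with DNMAML-ER, and 5 higher and 2 lower with Notch1-ER. Of all 12150 genes, 52.7%, 51.8% and 47.3% were higher in the same pairs. Their median difference was -0.16 with DAPT, where all 12150 genes had 0.02, and 0.01 with DNMAML-ER, where all genes had 0.01. It was 0.32 with Notch1-ER, where all genes had -0.01. Between vehicle arrays, 0 of the 7 passed 2-fold in any of 3 comparisons, where 242 of all genes (1.99%) did for DNMAML-ER ethanol against DMSO, 193 (1.59%) for Notch1-ER ethanol against DMSO and 13 (0.107%) between the ethanol arrays. At 1.5-fold, Dntt passed in the first of these (8.77% of all genes), Rag2 and Dntt in the second (8.77%) and none of the 7 in the third (1.03%).

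**Figure D3:**
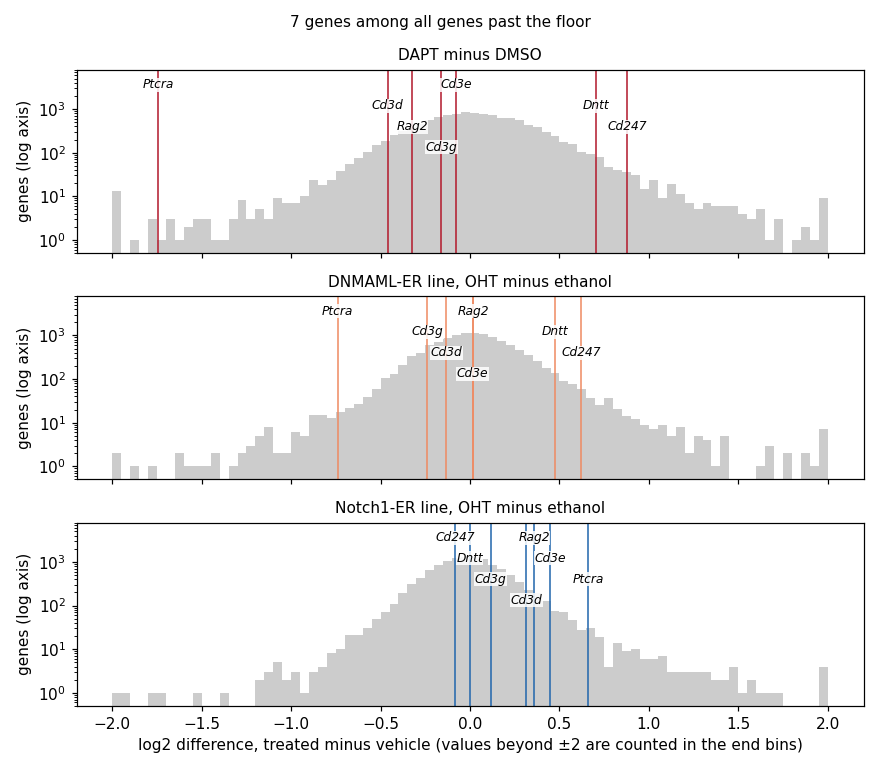
Number of genes (log axis) by log2 difference, treated minus vehicle, for all 12150 genes in each pair, with vertical lines at the 7 genes. Ptcra lies in the lower tail with DAPT (-1.75) and with DNMAML-ER (-0.74) and in the upper tail with Notch1-ER (0.66), and Cd247 lies in the upper tail with both inhibitors (0.88 and 0.62).

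Whether the 3 perturbations moved a gene together was tested over all 6 arrays. The Notch-high arm held Notch1-ER cells on OHT and the ethanol-treated DNMAML-ER and DMSO-treated parental cells. The Notch-low arm held DAPT-treated cells, DNMAML-ER cells on OHT and Notch1-ER cells on ethanol. In limma, with a block for each pair and Benjamini-Hochberg adjustment over all 12150 genes, 0 of the 7 genes and 0 of all genes (0%) passed an adjusted p of 0.05. At an unadjusted p of 0.05 limma passed 4 of the 7, Ptcra, Cd3d, Cd247 and Dntt, and 1026 of all genes (8.44%).

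Ptcra averaged 11.31 in the Notch-high arm and 10.26 in the Notch-low arm, a limma difference of 1.05 ± 0.21 (moderated SE, 3 pairs) with an adjusted p of 0.28. Its arms overlapped, since the Notch1-ER ethanol array (11.07) lay above the DNMAML-ER ethanol array (11.00), although each pair differed in the same direction. Cd247 had a limma difference of -0.53 ± 0.16 with an adjusted p of 0.50. Its highest Notch-high array (DMSO, 7.98) lay below its lowest Notch-low array (Notch1-ER ethanol, 8.06). Both of these are vehicle arrays, and the vehicle arrays of Cd247 spanned 0.09. For Dntt limma gave -0.39 ± 0.14 with an adjusted p of 0.55, and for Cd3d 0.30 ± 0.10 with an adjusted p of 0.54. Cd3e, Cd3g and Rag2 had limma differences of 0.17 ± 0.12, 0.17 ± 0.08 and 0.22 ± 0.11, with adjusted p-values of 0.67, 0.62 and 0.62.

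The outcome rested on the Notch1-ER pair. Without it, limma on the DAPT and DNMAML-ER pairs called 778 of all 12150 genes, on 1 residual degree of freedom. Among them were Ptcra (difference 1.24 ± 0.19, adjusted p 0.0066), Cd247 (-0.75 ± 0.11, adjusted p 0.0057) and Dntt (-0.59 ± 0.11, adjusted p 0.014). Ptcra differed by -1.75 and -0.74 in these pairs, and the moderated SE and p-value by limma also draw on the variance of all tested genes. In that fit every Notch-low array is also a treated array, so lower Notch activity and another response to treatment cannot be told apart. Without the DAPT pair the limma difference of Ptcra was 0.70 ± 0.11 with an adjusted p of 0.89, and without the DNMAML-ER pair it was 1.20 ± 0.24 with an adjusted p of 0.35. In both of those fits limma called 0 of the 7 genes and 0 of all 12150 genes.

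**Figure D4:**
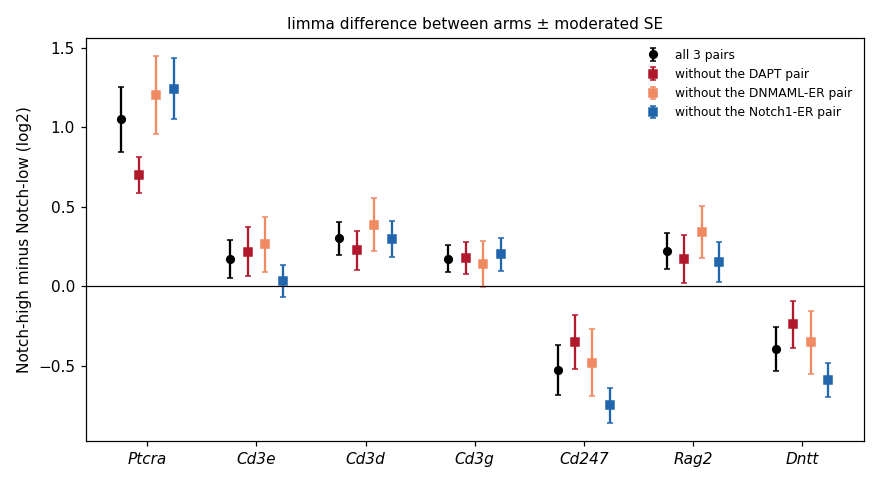
Notch-high minus Notch-low difference of each gene from limma, on the log2 scale, with bars of 1 moderated SE, for all 3 pairs and with each pair left out. Ptcra runs from 0.70 to 1.24, and each gene keeps its sign in every fit shown. A fit averages the differences of its pairs, so a gene with the same sign in all 3 pairs could not change sign.

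Among 1071 other genes with a range of at least 1 over the 6 arrays, the one most like Ptcra was ENSMUSG00000061086, with a Pearson r of 0.98 over 6 arrays. It differed by -1.05 with DAPT, -0.67 with DNMAML-ER and 0.32 with Notch1-ER. Most like Dntt was ENSMUSG00000038393, with a Pearson r of 0.99 over 6 arrays and differences of 0.88, 0.65 and 0.12. Of the 1071 genes, 9 had an r over 0.95 with Ptcra and 8 had one with Dntt, while 34 had an r under -0.95 with Ptcra and 1 had one with Dntt. The array's IDs are paired with no symbol, so these genes are not named.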

How the data were processed

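The authors deposited log2 levels computed by RMA (no version stated), per the submitters' processing notes. The method corrects background and brings the distributions of the arrays together, so that a change in the RNA content of cells would not show. The medians of the deposited gene levels still ran from 5.43 (DAPT) to 5.61 (DNMAML-ER ethanol). The sources used here state no array model, annotation or build. The symbols of the 8 genes came with the choice of genes, and 1 (Rag1) was not analysed here. The gene table (RefSeq, GRCm38.p6) held 0 Ensembl IDs, so other genes could not be named and the marker and pathway lists were not used. Promoter windows from the same source matched all 8 symbols.

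Differences were taken as treated minus vehicle with R 4.3.3. Genes had to reach the median mean level (5.54) on at least 1 array. The arms were compared with limma 3.58.1 (eBayes with a trend, two-sided, pair as a block, 2 residual degrees of freedom), tested on simulated data. The number of arrays limits the precision. A limma SE or p-value rests on the spread between these pairs, moderated by the variance of all tested genes. It does not measure the spread between replicates of a condition. All 7 genes with values were to be named. The most similar gene to Ptcra and to Dntt was taken by Pearson r. The genes, lists and tests were chosen with earlier results of these data known. Alternatives were 2 other normalizations, other floors, a size of 1.5-fold, no trend, no block and leaving out each pair.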

Additional observations from a re-analysis of the deposited data

Results flagged for a closer look

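For 5 of the 7 genes OHT against ethanol went one way with DNMAML-ER and the opposite way with Notch1-ER. With 1 array for each condition, this contrast of lines was not tested. Of all 12150 genes, 5713 (47%) had opposite signs in these pairs, so the count itself does not set the 7 genes apart. For Ptcra the DNMAML-ER difference minus the Notch1-ER difference was -1.40 (-0.74 and 0.66). For Cd3d it was -0.45 (-0.13 and 0.32), and for Cd3g -0.36 (-0.24 and 0.12). Cd247 gave 0.70 (0.62 and -0.08) and Dntt 0.48 (0.48 and -0.002). The sign of Dntt in the Notch1-ER line turned with the scaling, to 0.005 after a second quantile normalization and 0.055 after cyclic loess.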

How the results depend on the processing

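The count at 2-fold stayed at 1 (Ptcra) with DAPT, 0 with DNMAML-ER and 0 with Notch1-ER under both other normalizations and both other floors. At a size of 1.5-fold it was 3, 2 and 1, because the limit is lower. limma called 0 of the 7 genes under both normalizations, both floors, without the trend and without the pair as a block. With each pair left out in turn it called 0 to 3 of the 7, beside 0 to 778 of all 12150 genes. The most were called once Notch1-ER was dropped, and the cause of that was not tested. Without the pair as a block, the adjusted p of Ptcra by limma was 0.98. Among all genes limma called 2 after a second quantile normalization, 1 without the floor and 1 without the trend. Over other settings with all 3 pairs and the block, the adjusted p of Ptcra by limma ran from 0.25 to 0.31. At an unadjusted p of 0.05 limma passed 6 of the 7 genes after a second quantile normalization (955 of 12118 tested genes). Without the block it passed 2 (334 of 12150). It passed 1 without the DAPT pair (433 of 12150) and 2 without the DNMAML-ER pair (517 of 12150). Without the Notch1-ER pair it passed 4 (2776 of 12150). In the remaining settings this count stayed at 4, beside 947 of 12118 genes after cyclic loess and 1675 of 22414 without a floor. With the floor on the mean level limma passed 955 of 11207 genes, and without the trend 1049 of 12150. Each within-pair difference was compared with its value under each of the 2 other normalizations. Of these 42 comparisons, 38 kept the sign. The 4 that did not were Rag2 with DNMAML-ER (-0.05 and -0.03) and Dntt with Notch1-ER, each under both normalizations. The labels give no replicate numbers, so the pair is the only block.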
